A study of Arabidopsis thaliana with 56 samples.

Results

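HB7 (AT2G46680), a homeodomain leucine zipper (HD-Zip) transcription factor (TF) of Arabidopsis thaliana, was brought into the nucleus of isolated root cells, and the polyadenylated RNA of those cells was set against that of cells carrying an empty vector (EV). The members are the 3 libraries titled HB7, all of batch 3, and the 3 EV libraries of that batch, 6 of the 56 libraries in the series. All 6 were wild-type Col-0 root protoplasts from 10-day-old seedlings. Both groups received cycloheximide at 35 µM, which blocks translation, and then dexamethasone at 10 µM, which releases a TF fused to the glucocorticoid receptor into the nucleus. The control therefore differed from the HB7 cells in the plasmid and not in either drug. Transfected cells were sorted by a red or green fluorescent marker on the plasmid. The labels do not give the marker of each library, so HB7 and the marker vector cannot be told apart where they differ between the groups. As a second control, HB7 was set against 14 libraries of batch 3 in which another TF entered the nucleus, namely ABF3 with 2 libraries and DREB2A, FBH3, GBF2 and GBF3 with 3 each. The model is an overexpressed protein in cells without walls, drawn from all tissues of the root. Replicates were wells of a shared transfection, so the p-values below measure the spread between wells.

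HD-Zip proteins are specific to plants and bind DNA as dimers, through a homeodomain next to a leucine zipper. Class I, to which HB7 and its closest relative HB12 belong, is known from in vitro work to prefer the pseudopalindrome CAATNATTG with A or T in the middle, and class II proteins prefer C or G there. HB7 and HB12 are induced by drought and by the stress hormone abscisic acid (ABA). In intact plants they restrain growth and are known to alter the genes of ABA receptors and of the clade A phosphatases of type 2C (PP2C) that those receptors inhibit. Because translation was blocked, a transcript that differs in this assay can respond to HB7 without a newly made protein in between.

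The libraries held between 12944485 and 23251214 counts. EV replicate 1 stood apart from the other 5: it had the fewest counts, loci resembling ribosomal RNA genes took 16.8% of them against 1.0% to 3.3% elsewhere, and 15613 genes reached 10 counts against 18353 to 18890. Its counts differed from those of the other EV libraries by a chi-square of 160 and 202 per degree of freedom over genes, while every other pair within a group gave 8.34 to 19.7. The calls against EV and the counts on gene lists were therefore also computed without it. The shares of promoters that hold a word were not.

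The transfected gene matched the labels. HB7 (chromosome 2, 19165274 to 19166967, minus strand, TAIR10) stood at 3540, 4010 and 4192 counts per 1000000 (CPM, scaled by the trimmed mean of M-values) in the 3 HB7 libraries and at 50.1, 119 and 125 in EV replicates 1 to 3. The 14 libraries with other TFs ranged from 82.6 to 203 CPM with a median of 120. Reads of the plasmid and of the cell's own gene cannot be told apart, so HB7 is left out of all counts below. Of the 5 annotated loci on either side of it, only CYP78A6, which lies 9694 bases away, was called. This cytochrome of the KLUH family, known for promoting organ growth, had 30.03, 35.8 and 49.7 CPM in the HB7 libraries against 0, 0.208 and 1.47 in EV (log2 fold change 5.89, SE 0.71, edgeR adjusted p = 0.000118). AT2G46640 was too low to be tested, and the other 8 neighbours were not called.

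HB7 entry was followed by more and larger increases than decreases. Of 19495 genes tested, 668 were higher in HB7 than in EV (3.43%) and 408 were lower (2.09%) at a false discovery rate (FDR) under 0.05 in edgeR's quasi-likelihood test. The genes that rose had a median log2 fold change of 1.27, and 437 of them differed by over 2-fold, while the genes that fell had a median of -0.65, and 88 differed by that much. The median over all genes tested was 0.05. Among the 668, 434 were higher in every HB7 library than in all 17 other libraries of batch 3, as were 671 of all genes tested (3.44%). Among the 408, 63 were lower in every HB7 library than in those 17, as were 103 of all genes tested (0.528%). The 17 include the 3 EV libraries on which the genes were called, so part of this difference was fixed by the call. Over all genes tested, 2594 were above the 3 EV libraries without overlap and 1750 were below them. The plot of fold change against mean level shows that increases were more and larger than decreases.

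**Figure D1:**
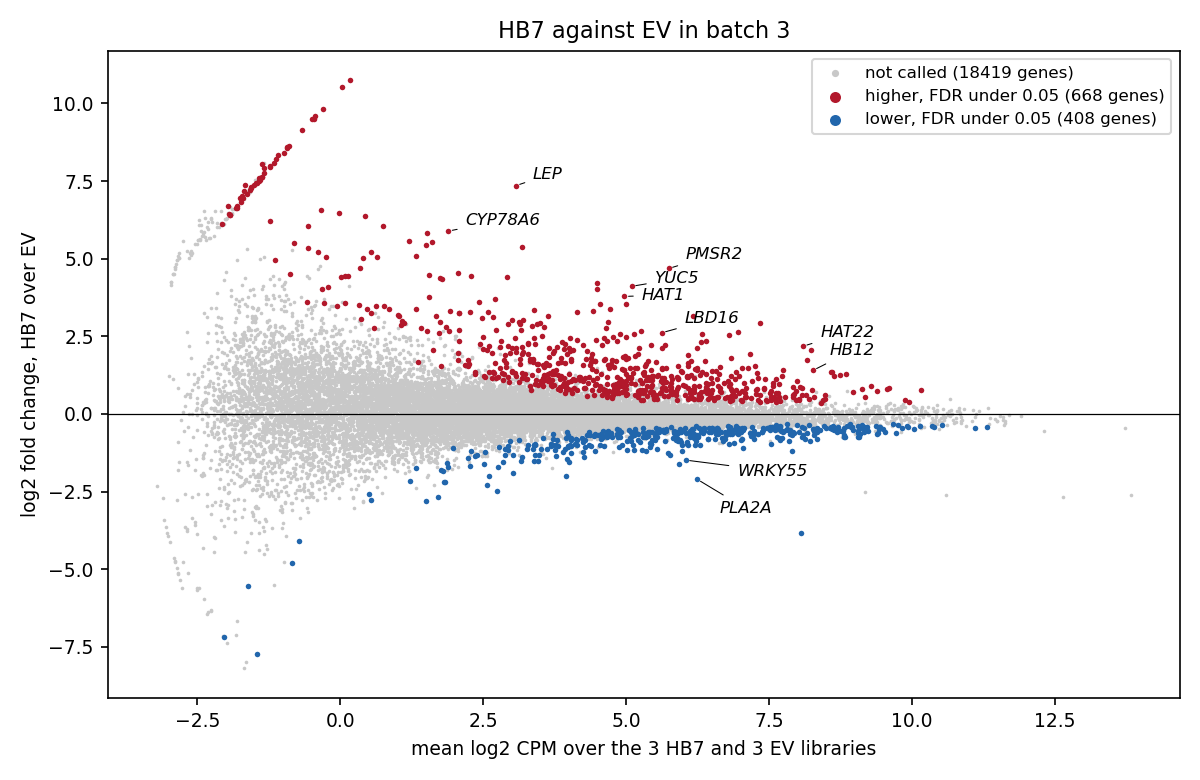
Log2 fold change of HB7 over EV (vertical axis) against the mean log2 CPM of the 6 libraries (horizontal axis), 1 point a gene, with the 668 genes called higher in red, the 408 called lower in blue and the genes not called in grey. The red points reach farther from the zero line than the blue ones, and most blue points lie close below it. The red diagonal at the upper left holds genes at 0 counts in all 3 EV libraries, whose fitted fold change has no upper bound.

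The genes that rose held up better under other choices of control than those that fell. Without EV replicate 1, 836 of 20190 genes were higher (4.14%) and 720 were lower (3.57%), among them 624 of the 668 and 375 of the 408, and all of both sets kept their direction. Against the other TFs, which share the HB7 libraries but no EV library with the first comparison, 1071 of 21552 genes were higher (4.97%) and 604 were lower (2.8%). Of the 668 genes, 567 were called higher there as well, and of the 408 genes, 179 were called lower there and 1 was called higher. The EV libraries of batches 1 and 2 entered the first comparison only through the shared estimate of the spread. With the 3 EV libraries of batch 3 alone, 347 genes were higher and 61 were lower, among them 340 of the 668 and 61 of the 408. The call of most lower genes, and of many higher ones, therefore rests on that shared estimate.

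The gene that rose most among those with a mean log2 CPM of at least 3 was LEP (AT5G13910, chromosome 5, 4482128 to 4483247), which encodes an AP2 domain TF named for the leafy petiole of its activation mutant. It had 90.5, 96.5 and 113 CPM in HB7 against 1.33, 0.416 and 0.377 in EV (log2 fold change 7.35, SE 0.75, edgeR adjusted p = 2.23e-05). No other library of batch 3 came above 10.8 CPM. DRN, a related AP2 domain TF of the shoot meristem and embryo, had 1.31, 2.19 and 1.91 CPM in HB7 and 0 counts in all 3 EV libraries, at least 37.6-fold higher against a floor of 3 counts over the EV group.

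The HD-Zip genes themselves were the clearest family. HD-Zip class II proteins act mostly as repressors and are known for roles in shade avoidance and auxin response. Of the 9 class II genes tested, 6 rose (HAT1, HAT2, HAT4, HAT9, HAT22 and HB17) and 0 fell, a share of 66.7% against the 3.43% over all genes, with a list median log2 fold change of 2.18. HAT22 was the most abundant, at 591, 602 and 590.4 CPM in HB7 against 80.3, 152 and 159 in EV (log2 fold change 2.18, SE 0.19, edgeR adjusted p = 5.12e-06). HAT2 had 212, 211 and 232 CPM against 35.8, 20.2 and 18.22 (log2 fold change 3.16, SE 0.24, edgeR adjusted p = 1.47e-06). In both genes every HB7 library lay above every EV library by a wide margin, and the HB7 wells were close together.

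HAT4, the shade avoidance regulator also named ATHB2, had 132, 125 and 136 CPM in HB7 against 34.4, 34.1 and 36.3 in EV (log2 fold change 1.91, SE 0.12, edgeR adjusted p = 2.17e-07). HAT1 had 109, 115 and 127 CPM against 6.74, 9.66 and 8.75, a log2 fold change of 3.79. HAT9 had 41.2, 34.0 and 38.7 CPM against 2.33, 4.996 and 5.21, a log2 fold change of 3.15. HB17 moved least of the 6, with a log2 fold change of 0.55 (edgeR adjusted p = 0.00805). HAT14 was not called against EV (log2 fold change 1.84, edgeR adjusted p = 0.162) but was called without EV replicate 1 and against the other TFs. In class I, 9 genes were tested, of which 1 rose and 1 fell. The one that rose was HB12, the closest relative of HB7, at 544, 477 and 508 CPM against 125, 226 and 226 (log2 fold change 1.40, SE 0.23, edgeR adjusted p = 0.00133). EV replicate 1 was the lowest EV library for HB12, and without it the log2 fold change was 1.12. HB6, which is known to dampen ABA responses, had 81.0, 77.0 and 78.9 CPM against 118, 109 and 109 (log2 fold change -0.50, edgeR adjusted p = 0.0192) and was below all 17 other libraries of batch 3.

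**Figure D2:**
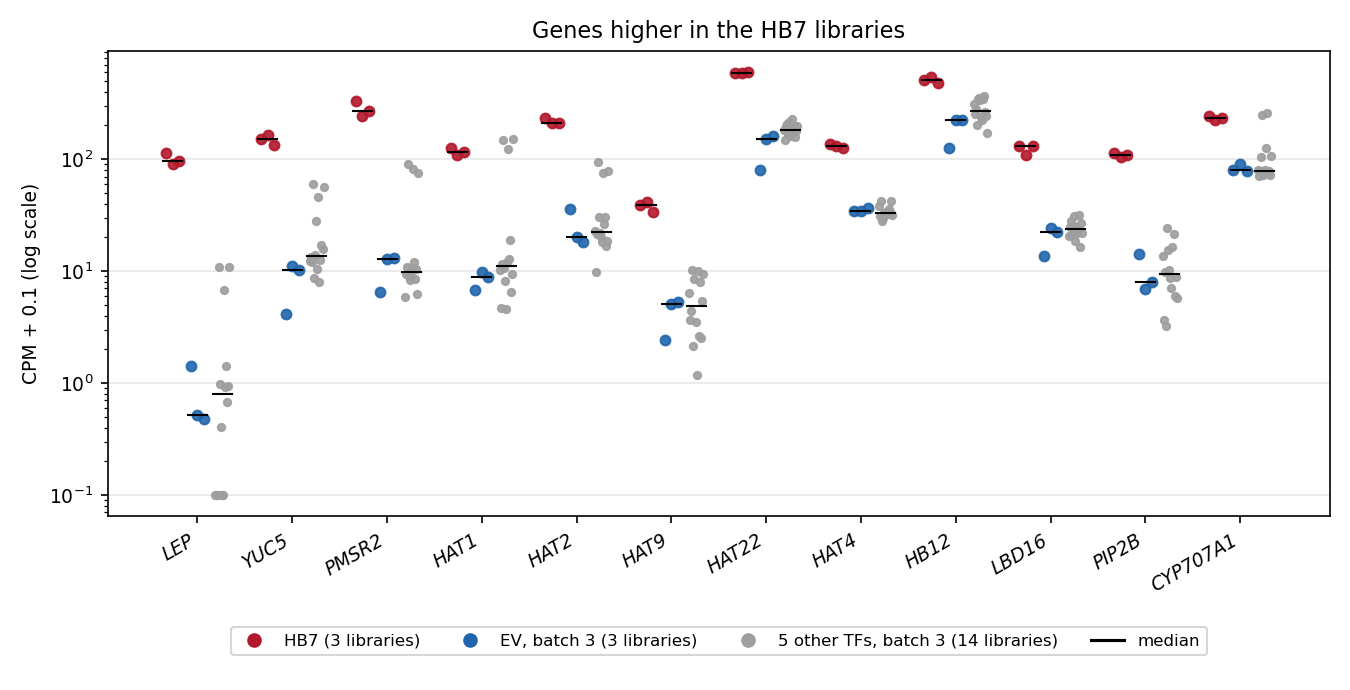
CPM plus 0.1 on a log scale for 12 genes called higher in HB7, with 1 point a library for HB7 (red, 3), EV of batch 3 (blue, 3) and the 5 other TFs of batch 3 (grey, 14), and black lines at the medians. For all 12 genes the HB7 points lie above the EV points. HAT1 and CYP707A1 are the genes in which some grey points reach the HB7 level.

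Part of the members of other TF families rose. Of 86 basic helix-loop-helix (bHLH) genes tested, 15 rose and 1 fell, and of 82 MYB genes, 11 rose and 1 fell, which is 17.44% and 13.4% higher against 3.43% over all genes. Among the bHLH genes, AT3G57800 had 37.7, 30.1 and 31.8 CPM in HB7 against 4.32, 3.46 and 2.11 in EV, and MYC4, a TF of the jasmonate response, had 9.19, 8.39 and 8.70 against 2.74, 3.46 and 5.21. Among the MYB genes, MYB68, known from the root pericycle, had 204, 198 and 189 CPM against 51.0, 94.4 and 87.2 (log2 fold change 1.34, SE 0.19, edgeR adjusted p = 0.000414). MYB58, an activator of lignin genes, had 9.07, 7.40 and 6.68 CPM against 0, 0.791 and 0. Of 59 WRKY genes, 3 were higher and 2 lower, shares of 5.08% and 3.39% that are near those over all genes (3.43% and 2.09%). DESeq2 called 6 WRKY genes higher and 8 lower, and against the other TFs 9 were higher and 4 lower. WRKY45, which is known to promote phosphate uptake, had 102, 88.0 and 90.3 CPM against 19.2, 20.8 and 19.4 (log2 fold change 2.23, SE 0.13, edgeR adjusted p = 1.65e-07).

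LBD16, a TF that starts lateral roots downstream of auxin, had 108, 132 and 132 CPM in HB7 against 13.5, 24.3 and 22.4 in EV (log2 fold change 2.61, SE 0.20, edgeR adjusted p = 1.14e-06). TMO6, a Dof TF of the embryo and root vasculature, had 65.3, 69.6 and 69.4 CPM against 5.57, 9.70 and 5.21, a log2 fold change of 3.31. Both were above all 17 other libraries of batch 3. LBD16 was in addition 1 of 3 genes that rose among the 17 tested on a list of auxin transport and response, beside LAX3, an auxin importer at 0 counts in EV, and GH3.5, which conjugates auxin to amino acids (88.7, 81.5 and 85.1 CPM against 17.1, 35.3 and 39.0). No gene of that list fell in edgeR's test, in which 2 were lower at an unadjusted p under 0.05, while DESeq2 called 1 lower.

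The genes that rose most included enzymes of several pathways. YUC5 (AT5G43890), a flavin monooxygenase of the last step of auxin synthesis, had 166, 133 and 151 CPM in HB7 against 4.08, 10.99 and 10.2 in EV (log2 fold change 4.11, SE 0.27, edgeR adjusted p = 4.26e-07). PMSR2, a methionine sulfoxide reductase that repairs oxidised methionine, had 245, 267 and 331 CPM against 6.40, 12.7 and 12.9 (log2 fold change 4.69, SE 0.34, edgeR adjusted p = 7.09e-07). The aspartyl protease gene AT5G10770 had 105, 94.7 and 102 CPM against 2.83, 7.08 and 5.77, a log2 fold change of 4.22. For these 3 genes no EV library and no library with another TF reached the lowest HB7 value. The others of the 15 largest increases were AT3G45840 (a C1 domain protein), AT1G71870 (a MATE transporter), AT1G16360, PIP2B, PGDH (serine synthesis), AT5G57070 and the TF genes given above, with log2 fold changes of 3.15 to 7.35 over the 15. All 15 were called without EV replicate 1, against the other TFs and with the EV libraries of batch 3 alone.

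Some genes of water and ion transport and of the cell wall also rose. Of 25 aquaporin genes tested, 4 rose and 0 fell in edgeR, 16% higher against 3.43% over all genes, in which 2 were lower at an unadjusted p under 0.05 and 0 were lower by DESeq2. The plasma membrane water channel PIP2B had 105, 108 and 114 CPM in HB7 against 14.1, 6.87 and 7.85 in EV (log2 fold change 3.53, SE 0.42, edgeR adjusted p = 0.000101). Its neighbour in sequence, RD28, had 27.8, 23.1 and 28.9 CPM against 0, 1.71 and 1.43, and reads of the pair may be shared between them. TIP4;1 of the vacuolar membrane had 0 counts in EV and was at least 52.1-fold higher. Of 21 xyloglucan endotransglucosylases, which cut and rejoin wall polymers, 4 rose (XTH20, XTH21, XTH24 and XTH30), a share of 19%, and DESeq2 called 4 higher and 2 lower. XTH21 was not called against the other TFs. Of 42 pectin methylesterases and their inhibitors 4 rose and 1 fell, shares of 9.52% and 2.38% against 3.43% and 2.09% over all genes. Of 15 expansins, which loosen walls, edgeR called 0 in either direction, with 1 lower at an unadjusted p under 0.05 and 1 lower by DESeq2. XTH24 was the most abundant of the xyloglucan genes that rose, at 669, 630 and 680 CPM against 293, 275 and 257 (log2 fold change 1.26, SE 0.12, edgeR adjusted p = 9.88e-06). Of 13 genes of nitrate uptake and response 2 rose and 0 fell, 15.4% higher against 3.43% over all genes. They were NRT1.1, the dual-affinity nitrate transporter and sensor, and LBD38, a repressor of nitrate responses. LBD38 was not called against the other TFs (log2 fold change 0.23), and it averaged 49.8 CPM in FBH3 and 13.1 in HB7. NRT1.1 had 20.4, 19.4 and 14.3 CPM against 7.32, 5.04 and 4.30.

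Some genes of metabolic families rose. Of 45 glutathione S-transferase genes tested 7 rose and 1 fell, 15.6% higher against 3.43% over all genes, whereas 3 were higher and 4 lower against the other TFs. Of 46 class III peroxidase genes edgeR called 4 higher (8.70%) and 0 lower, with 5 lower at an unadjusted p under 0.05 and 2 lower by DESeq2. Of 139 cytochrome P450 genes 11 rose and 3 fell, shares of 7.91% and 2.16% against 3.43% and 2.09% over all genes, and DESeq2 called 13 higher and 9 lower. The transporters GTR1 and GTR2, which load glucosinolate defence compounds, both rose. GTR1 had 799, 723 and 687 CPM in HB7 against 378, 501 and 389 in EV, and GTR2 had 255, 205 and 191 against 74.4, 129 and 106. GTR1 was not called against the other TFs (log2 fold change 0.22). In contrast to these families, 1 of 281 cytosolic ribosomal protein genes rose and 1 fell, 0.356% in each direction. Of 284 genes of pentatricopeptide repeat (PPR) proteins, which process organelle RNA, 0 rose and 4 fell, 1.41% lower against 2.09% over all genes. For the PPR genes DESeq2 called 2 higher and 11 lower. At an unadjusted p under 0.05 in edgeR, 7 PPR genes were higher and 16 lower.

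**Figure D3:**
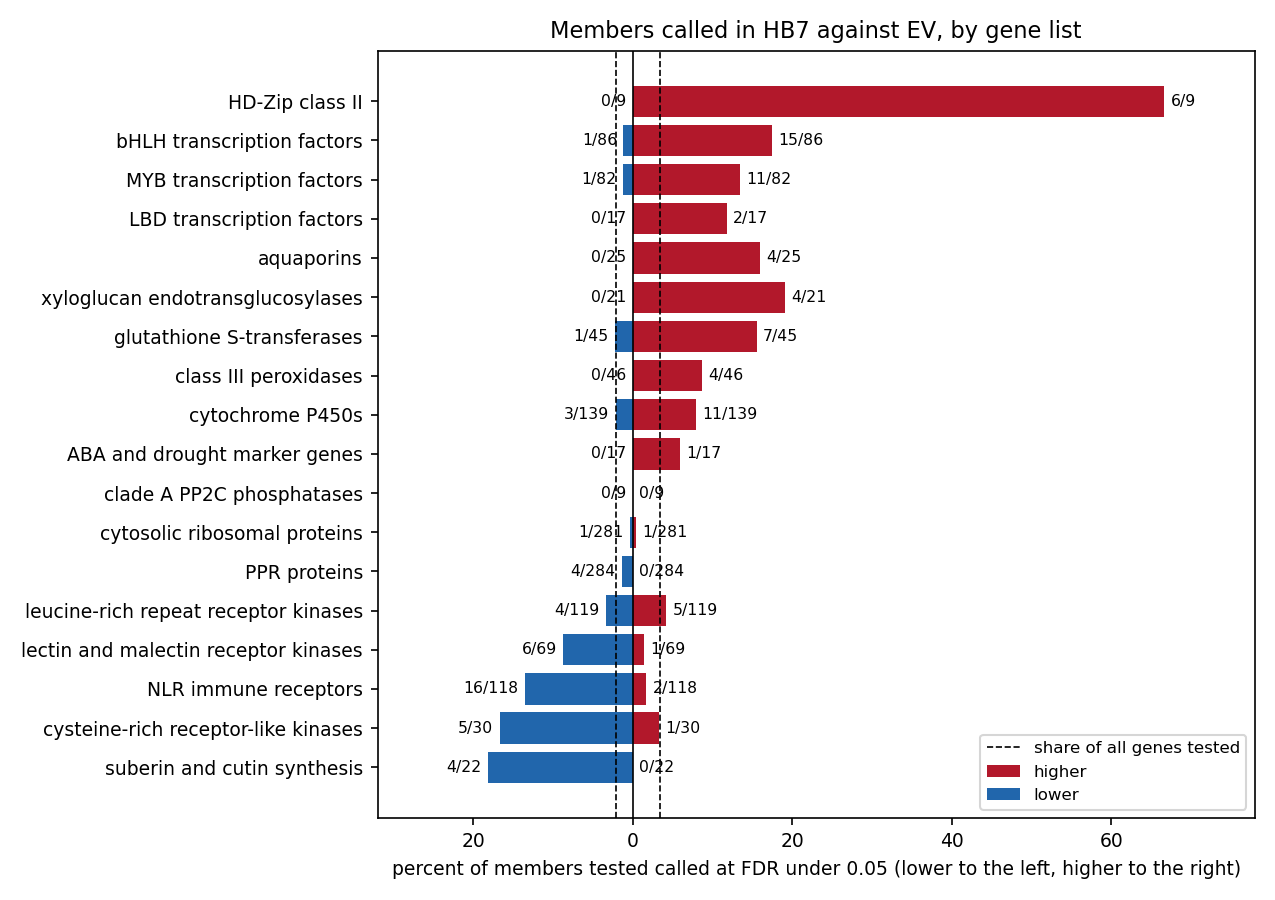
Percent of the tested members of each gene list or family that were called in HB7 against EV, lower to the left and higher to the right, with the number called of the number tested beside each bar and dashed lines at the shares over all genes tested (2.09% and 3.43%). HD-Zip class II reaches 66.7% on the right. The longest bars on the left are those of suberin and cutin synthesis, cysteine-rich receptor-like kinases and NLR immune receptors.

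ABA signalling genes were tested next because of what is known of HB7. Neither the 7 ABA receptor genes nor the 9 clade A PP2C genes tested held a gene called by edgeR against EV. Among the receptors 1 was higher and 2 were lower at an unadjusted p under 0.05, and DESeq2 called 0 higher and 2 lower. PYL5 had 8.60, 9.51 and 10.6 CPM in HB7 against 14.3, 14.4 and 20.6 in EV (log2 fold change -0.78, edgeR adjusted p = 0.0765). The groups did not overlap, and PYL5 was called lower without EV replicate 1 (edgeR adjusted p = 0.0157) and against the other TFs. PYL4 had 63.6, 67.2 and 90.3 CPM against 127, 102 and 92.5 (edgeR adjusted p = 0.0748), and it was called lower against the other TFs.

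For the PP2C genes the counts against EV were 0 in both directions by edgeR, by DESeq2 and at an unadjusted p under 0.05. HAI2, for example, had 45.3, 42.9 and 41.3 CPM in HB7 against 15.6, 62.5 and 52.4 in EV, so the EV libraries lay on both sides of HB7. HAI1, HAI2 and HAI3 were lower than in the other TF libraries (log2 fold changes -0.72, -1.18 and -1.03). ABF3, DREB2A and the G-box factors among those TFs are themselves part of ABA and drought signalling. The part of those TFs in this difference was not tested.

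ABA breakdown did move. CYP707A1 and CYP707A3, hydroxylases that inactivate ABA, were the 2 genes called by edgeR among the 10 tested of ABA synthesis, breakdown and transport, and both rose. DESeq2 called 3 of the 10 higher and 2 lower. CYP707A1 had 224, 234 and 245 CPM in HB7 against 80.8, 90.8 and 79.0 in EV (log2 fold change 1.49, SE 0.15, edgeR adjusted p = 1.92e-05). CYP707A3 had 371, 300.3 and 312 CPM against 155, 187 and 195 (log2 fold change 0.87, SE 0.13, edgeR adjusted p = 0.000556). CYP707A1 averaged 254 CPM in the ABF3 libraries and 235 in HB7, and CYP707A3 averaged 485 CPM in the FBH3 libraries and 328 in HB7. Of 17 ABA and drought marker genes, LTI30, a dehydrin, was the gene called (log2 fold change 0.67, edgeR adjusted p = 0.0426), and it was no longer called without EV replicate 1 (edgeR adjusted p = 0.0696).

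Other hormone pathways changed at single steps. In the gibberellin list GA3OX1, which makes active gibberellin, had 0.675, 2.92 and 1.68 CPM in HB7 and 0 counts in EV, at least 36.7-fold higher. GA3OX1 was not called against the other TFs. GA2OX6, which inactivates gibberellin, had 322, 309.6 and 272 CPM against 167, 226 and 198. Among the ethylene genes, ACS2, an ACC synthase of ethylene synthesis, fell by 0.37 on the log2 scale. The response factors ERF2, ERF5 and ERF104 rose by log2 fold changes of 0.50, 0.49 and 0.75. Against the other TFs ERF2 was called higher, and ERF5 and ERF104 were not called. ERF104 rose more in GBF2 and FBH3 than in HB7 against the same EV libraries (log2 fold changes 1.07 and 0.93). LOX4 and AOS of jasmonate synthesis fell by 0.40 and 0.38 on the log2 scale, and 0 of the 16 jasmonate genes tested rose in edgeR, with 1 higher at an unadjusted p under 0.05 and 0 by DESeq2. None of the 12 circadian clock genes and none of the 17 cytokinin genes tested was called in edgeR. Among them 2 clock genes were lower, and 1 cytokinin gene was higher and 2 were lower, at an unadjusted p under 0.05, and DESeq2 called 1 clock gene lower and 1 cytokinin gene higher.

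FBH3, a bHLH TF, shared some of the genes with the largest increases. LEP averaged 100.1 CPM in the HB7 libraries, 9.44 in FBH3 and 0.708 in EV. AT3G45840 averaged 57.8 CPM in HB7 and 46.6 in FBH3, and HAT1 averaged 117 in HB7 and 141 in FBH3, against 1.48 and 8.38 in EV. PMSR2 and YUC5 were higher in HB7, at 281 and 150 CPM, than in FBH3, at 82.5 and 53.8. Each of these genes was called in FBH3 against the same EV libraries. In HAT22, HAT4, LBD16 and WRKY45 each of the 14 libraries with other TFs was below the lowest HB7 value. HAT22 was nonetheless called higher than EV in FBH3, DREB2A and GBF2 (log2 fold changes 0.68, 0.61 and 0.52, edgeR adjusted p = 0.0058, 0.0252 and 0.0286), against 2.18 in HB7.

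The 500 bases before the annotated gene start were searched on both strands for the HD-Zip word CAATNATTG and for AATNATT, which it contains. CAATNATTG was in 25 of the 668 promoters of genes that rose (3.74%, Wilson 95% interval 2.55 to 5.47), in 2.45% of those of genes that fell, in 1.72% of those not called and in 1.79% of all 27444 protein-coding promoters. The intervals count promoters as independent. Among the 199 genes that rose by over 4-fold the share was 5.53%. Read the other way, 25 of the 344 genes tested with a single CAATNATTG rose (7.27%), as did 3.36% of the genes without it and 0 of the 8 genes with 2 of them. Most promoters of genes that rose therefore held no CAATNATTG in this window.

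The stretches below show CAATNATTG before genes that rose and come from different functions, each read 5′ to 3′ on the strand of its gene from the RefSeq genome TAIR10.1, with the word in capitals and 21 bases on either side. In 6 of the 7 the middle base is A on that strand, and in AT5G10770 it is T.
AT5G10770, chr5:3405839-3405889, minus strand, word centred 293 bases upstream: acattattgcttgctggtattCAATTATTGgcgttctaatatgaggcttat
HAT4, chr4:9448616-9448666, plus strand, 473 bases upstream: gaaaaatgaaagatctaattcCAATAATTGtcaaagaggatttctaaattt
GA3OX1, chr1:5346657-5346707, minus strand, 340 bases upstream: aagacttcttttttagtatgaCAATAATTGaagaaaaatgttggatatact
LAX3, chr1:29203420-29203470, minus strand, 27 bases upstream: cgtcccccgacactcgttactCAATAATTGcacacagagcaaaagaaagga
MYB14, chr2:13288775-13288825, minus strand, 420 bases upstream: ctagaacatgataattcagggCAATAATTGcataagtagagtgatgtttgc
CYP96A4, chr5:21246796-21246846, minus strand, 47 bases upstream: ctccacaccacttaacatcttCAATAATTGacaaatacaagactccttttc
GT72B1, chr4:463822-463872, minus strand, 291 bases upstream: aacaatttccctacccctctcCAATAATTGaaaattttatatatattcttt

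These genes differ in level and in size of change. MYB14, a MYB TF of the cold response, had 12.4, 15.5 and 14.3 CPM in HB7 against 3.91, 4.16 and 3.169 in EV (log2 fold change 1.91). CYP96A4, a P450, had 9.28, 6.49 and 9.87 CPM against 0, 0.291 and 0.302 (log2 fold change 5.22). GT72B1, a glucosyltransferase known for detoxifying chlorinated phenols, had 117, 158 and 189 CPM against 52.8, 62.6 and 76.1 (log2 fold change 1.27). The word was absent from these 500 bases of LEP, the gene that rose most, and of HAT1, HAT2, HAT9, HAT22 and HB17.

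The shorter word AATNATT was in 68.7% of the promoters of genes that rose, 48.3% of those that fell and 49.5% of all protein-coding promoters. It was in the promoters of all 6 class II genes that rose and of 13 of the 15 named genes that rose most, and LEP had none. The promoters of genes that rose had a median GC content of 28.8%, against 31% for genes that fell and 32.0% for genes not called, and words of A and T are commoner in such sequence. Among promoters of 27% to 31% GC, AATNATT was in 71.3% of 289 genes that rose, 53.7% of 134 that fell and 59.4% of 4850 not called. In the same band 5 other arrangements of its letters were searched as well. TAANTTA was in 44.98% of the promoters of genes that rose and 49.5% of those not called, ATANTAT in 50.9% and 47.3%, and TATNATA in 44.3% and 43.8%. ATTNAAT was in 52.9% and 51.8%, and TTANTAA in 48.4% and 47.3%. Each of these differed by less between the sets than AATNATT did.

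Against EV, 3 families of receptor genes held more genes that fell than genes that rose, and against the other TFs only the NLR genes of these did. Plant cells sense microbes through receptor kinases at the surface and through nucleotide-binding leucine-rich repeat (NLR) receptors inside the cell. Of 118 NLR genes tested, 16 fell and 2 rose, 13.6% lower against 2.09% over all genes, with a list median log2 fold change of -0.28. Against the other TFs 12 NLR genes were lower and 4 higher, and over all genes tested in that comparison 2.8% were lower and 4.97% higher. Of 30 cysteine-rich receptor-like kinases (CRK) 5 fell and 1 rose against EV, 16.7% lower, whereas 4 were lower and 4 higher against the other TFs. Of 69 lectin and malectin receptor kinases 6 fell and 1 rose against EV, 8.7% lower, whereas 1 was lower and 8 were higher against the other TFs. The leucine-rich repeat receptor kinases had 5 of 119 genes higher and 4 lower against EV, shares of 4.20% and 3.36% that are near those over all genes (3.43% and 2.09%). The size of these decreases was small beside the increases. The 16 NLR calls numbered 24 without EV replicate 1, 25 in DESeq2 and 2 with the EV libraries of batch 3 alone.

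Among the NLR genes, AT5G41740 had 124, 118 and 110.5 CPM in HB7 against 156, 186 and 191 in EV (log2 fold change -0.60, SE 0.11, edgeR adjusted p = 0.00479), and it was below all 17 other libraries of batch 3. RPM1, the receptor for the bacterial effectors AvrRpm1 and AvrB, had 80.1, 81.9 and 81.9 CPM against 105, 129.6 and 105 (log2 fold change -0.48, edgeR adjusted p = 0.0189). The receptor gene RPS2 (AT4G26090) had 167, 173 and 162 CPM against 249, 239 and 206 (log2 fold change -0.46, edgeR adjusted p = 0.0154). In each of these the HB7 and EV libraries did not overlap, as was so for 8.98% of all genes tested in the lower direction. RPM1 and RPS2 were not called against the other TFs. AT1G58848 with AT1G59218 and AT1G58807 with AT1G59124 are near-identical pairs whose reads cannot be told apart, so the 16 calls stand for fewer separate signals.

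Single genes of immune signalling were also lower. EDS1, the lipase-like hub through which many NLR receptors act, had 94.6, 108 and 97.0 CPM in HB7 against 145, 163 and 156 in EV (log2 fold change -0.63, SE 0.10, edgeR adjusted p = 0.00126). It was the gene called among the 11 salicylic acid and immune regulators tested, and 5 of these were lower without EV replicate 1. BIK1, a kinase that relays signals from surface receptors, had 133, 141 and 148 CPM against 214, 201 and 185 (log2 fold change -0.51, edgeR adjusted p = 0.00676). FRK1, a marker of the response to bacterial flagellin, had 260.4, 285 and 259.9 CPM against 538, 337 and 331 and fell by 0.58 on the log2 scale, but was not called against the other TFs (log2 fold change 0.05). Of the 16 genes of pattern-triggered immunity 2 rose and 2 fell against EV, and 3 were higher and 2 lower against the other TFs. In this list, PROPEP1, which encodes a danger peptide precursor, and its receptor PEPR2 rose by log2 fold changes of 0.80 and 0.54. PEPR2 was called higher against the other TFs and PROPEP1 was not (log2 fold change 0.30). CYP81F2 of indole glucosinolate synthesis had 51.5, 55.1 and 59.8 CPM against 133, 83.4 and 89.8 (log2 fold change -0.88, edgeR adjusted p = 0.00569).

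**Figure D4:**
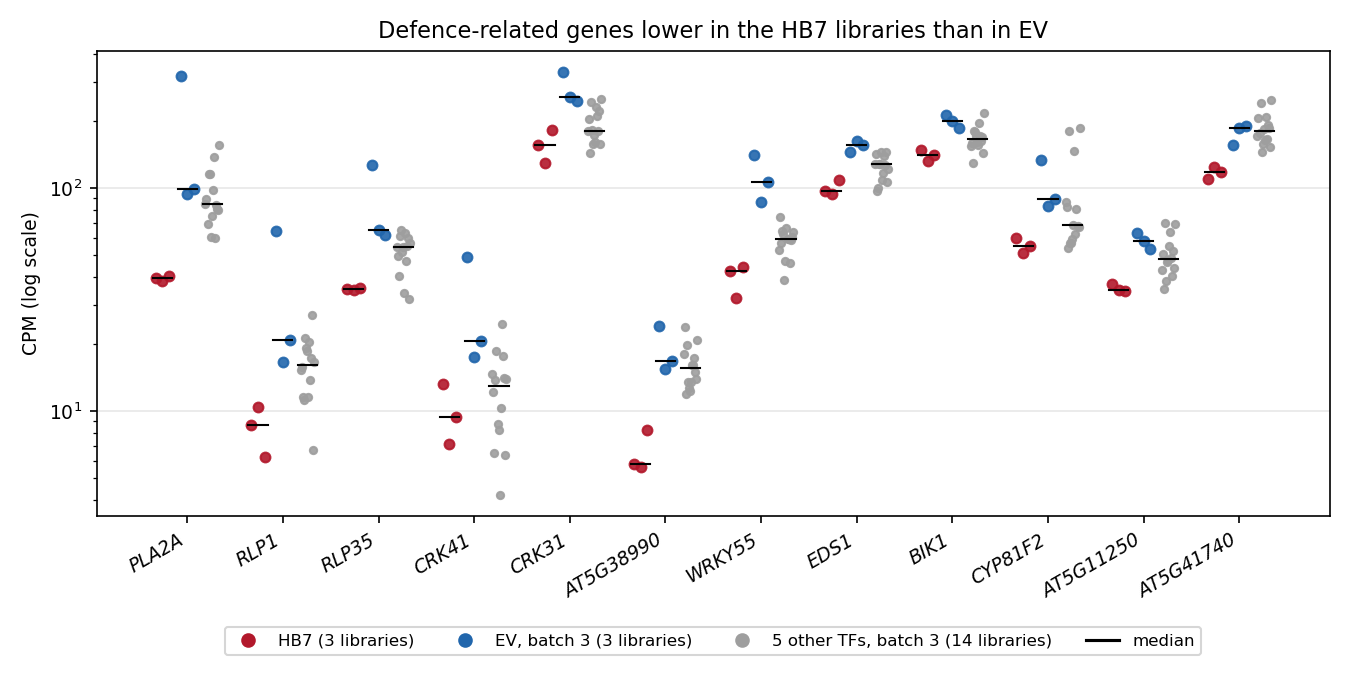
CPM on a log scale for 12 genes of receptor families or of defence called lower in HB7, with 1 point a library for HB7 (red, 3), EV of batch 3 (blue, 3) and the 5 other TFs of batch 3 (grey, 14), and black lines at the medians. For all 12 genes the HB7 points lie below the EV points. EV replicate 1 is the blue point far above the others in PLA2A, RLP1, RLP35 and CRK41.

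Of the 15 largest decreases by the same rule as above, PLA2A led. This patatin-like phospholipase, known to be induced by pathogens, had 38.4, 40.3 and 39.7 CPM in HB7 against 318, 94.1 and 99.1 in EV (log2 fold change -2.10, SE 0.34, edgeR adjusted p = 0.00154). EV replicate 1 was over 3 times the other EV libraries, and without it the log2 fold change was -1.34. WRKY55, a TF of the salicylic acid response and leaf senescence, had 32.2, 44.6 and 42.6 CPM against 141, 86.5 and 107 (log2 fold change -1.48, SE 0.16, edgeR adjusted p = 4.7e-05) and -1.33 without that library. The malectin receptor kinase gene AT5G38990 had 5.61, 8.26 and 5.78 CPM against 24.2, 15.5 and 16.8 (log2 fold change -1.51, edgeR adjusted p = 0.000414). PLA2A and AT5G38990 were below all 17 other libraries of batch 3, whereas WRKY55 overlapped with the libraries of other TFs, which ranged from 38.7 to 74.0 CPM.

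The rest of the 15 were RLP1, AT1G13310, sks8, CRK41, PLL2, AT5G54203, AT4G38560, RLP43, AT5G58610, AT5G51920, HA9 and AT1G68330, and the 15 had log2 fold changes between -1.32 and -2.10. Of the 15, 13 were called without EV replicate 1, 6 against the other TFs and 7 with the EV libraries of batch 3 alone. The exceptions without EV replicate 1 were sks8 (edgeR adjusted p = 0.064) and RLP43 (edgeR adjusted p = 0.0687). Over all 408 genes that fell, EV replicate 1 was the EV library farthest from HB7 in 301, and over the 668 that rose it was so in 365. LFY, a floral TF called lower, had 277, 41.5 and 48.2 CPM in HB7 against 4437, 550.03 and 262 in EV, so that the groups overlapped and EV replicate 1 was far above the rest.

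Outside defence, suberin and cutin synthesis had 4 of 22 genes lower, 18.18% against 2.09% over all genes, and 0 higher in edgeR, at an unadjusted p under 0.05 and in DESeq2. These were GPAT5, ASFT and KCS20, enzymes that make suberin monomers, and MYB41, a TF that switches suberin synthesis on. GPAT5 had 12.3, 8.43 and 4.82 CPM in HB7 against 16.5, 20.1 and 18.9 in EV (log2 fold change -1.11, edgeR adjusted p = 0.0362), and MYB41 had 13.5, 15.8 and 8.92 against 27.4, 31.1 and 17.5. Replicate 3 was the lowest HB7 library for GPAT5, ASFT, KCS20 and MYB41. Of the 4 genes only KCS20 was called lower against the other TFs as well. KCS20 averaged 118, 83.8 and 60.4 CPM in FBH3, ABF3 and DREB2A, above its EV mean of 44.2. In GBF2 and GBF3 it averaged 33.5 and 35.1 CPM, nearer to the 28.2 of HB7. Among other TF genes that fell were WRKY67, NAC044 and ERF4, a repressor of the ethylene family at 461, 393 and 412 CPM against 544, 628 and 538. ERF4 was below all 17 other libraries of batch 3, while WRKY67 was not called without EV replicate 1 (edgeR adjusted p = 0.062).

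WRKY proteins bind the W-box, searched as TTGACC or TTGACT on either strand. It was in 66.4% of the promoters of genes that fell (Wilson 95% interval 61.7 to 70.8), in 51.3% of those that rose, in 45.5% of those not called and in 45.2% of all protein-coding promoters. The gap was narrower for genes called against the other TFs, at 55.1% of those lower and 52.5% of those higher. For genes called in the same direction in both comparisons the shares were 63.7% of those lower and 51.1% of those higher. The share of genes that fell was 1.30% with 0 W-boxes, 2.34% with 1, 3.67% with 2 and 6.12% with 3 or more, and the share that rose went from 3.09% to 4.32% over the same steps. W-boxes were before 13 of the 15 genes that fell most, 11 of the 15 that rose most and 10 of the 16 NLR genes that fell. They are shown, in capitals, for 4 genes that fell and are described here, with 21 bases on either side and GGTCAA and AGTCAA as the W-box read from the opposite strand.
WRKY55, chr2:16996746-16996793, plus strand, word centred 308 bases upstream: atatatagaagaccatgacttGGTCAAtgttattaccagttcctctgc
WRKY55, chr2:16996822-16996869, plus strand, 232 bases upstream: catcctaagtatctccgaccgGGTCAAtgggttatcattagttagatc
PLA2A, chr2:11296286-11296333, minus strand, 391 bases upstream: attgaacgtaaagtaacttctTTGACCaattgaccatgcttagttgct
EDS1, chr3:17758218-17758265, minus strand, 94 bases upstream: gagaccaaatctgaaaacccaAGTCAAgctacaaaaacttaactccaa
CRK31, chr4:6967537-6967584, plus strand, 148 bases upstream: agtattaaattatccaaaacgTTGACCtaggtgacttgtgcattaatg
In PLA2A the next W-box follows 2 bases after the one in capitals. CRK31, which has another copy 77 bases upstream, had 130.2, 183 and 156 CPM in HB7 against 332, 257 and 246 in EV (log2 fold change -0.83, SE 0.13, edgeR adjusted p = 0.00114).

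Cell type markers moved for some tissues. In bulk RNA, fewer cells of a type and less RNA per cell cannot be told apart. Of the 3 stele and pericycle markers WOL, a cytokinin receptor of the vasculature, rose (27.1, 23.4 and 31.6 CPM in HB7 against 8.32, 9.49 and 5.73 in EV), and the 3 markers summed to 32.2 to 37.9 CPM against 8.53 to 14.4. The 3 xylem markers summed to 47.7 to 97.8 CPM against 28.0 to 41.6, and XCP2, a xylem protease, was called higher with EV replicate 1 but not without it. BRN2, 1 of 3 tested root cap markers, rose as well (17.59, 13.8 and 17.7 CPM against 7.40, 8.49 and 7.51). The 8 tested endodermis markers summed to 38.7 to 49.8 CPM against 36.8 to 58.8, a range that overlapped. Of these 8, edgeR called 1 lower and 0 higher, DESeq2 called 3 lower and 0 higher, and 2 were lower without EV replicate 1. The marker called by edgeR, CASP4, had 0 counts in all HB7 libraries and 0, 2.25 and 0.830 CPM in EV. The 2 tested root hair markers, RHD6 and RSL4, were not called by edgeR or DESeq2, and RHD6 was higher at an unadjusted p under 0.05, but the sums of the root hair markers were 18.1, 17.3 and 20.4 CPM in HB7 against 0, 3.91 and 6.34 in EV, without overlap. Sums of the 2 non-hair epidermis markers overlapped, at 0.506 to 1.63 against 0 to 1.08 CPM, and DESeq2 called 1 of them higher. The 3 phloem markers overlapped at 21.2 to 29.6 against 23.2 to 51.6 CPM. The part of cell composition in the rise of vascular genes such as TMO6, LBD16 and MYB58 and in the fall of the suberin genes was not tested.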

How the data were processed

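RNA-seq read counts per gene were deposited for each library. According to the study's methods, the authors sorted transfected protoplasts, prepared polyadenylated RNA libraries, aligned reads to TAIR10 with HISAT2 2.0.5 and tested them with DESeq2 1.22.1. The strand setting of the counting is not given in the sources used here, so antisense or overlapping genes may share reads. The authors' removal of genes that respond to cycloheximide was not repeated. The 33016 deposited gene counts of 26 libraries were used as they stand. The main test was edgeR 4.0.16 (R 4.3.3) with TMM scaling, filterByExpr at a minimum count of 10, the quasi-likelihood test and Benjamini-Hochberg adjustment over all genes tested, in a model of TF and batch over the 3 HB7 libraries and 9 EV libraries. The EV libraries of batches 1 and 2 enter only through the spread. HB7 was also set against the mean of 5 other TF groups of batch 3 in a model of that batch. Alternatives were DESeq2 1.42.0, edgeR scaled by its size factors, no low-count filter, the EV libraries of batch 3 alone, all libraries of batch 3 in a single model, a replicate block, omission of loci that resemble ribosomal RNA genes, and omission of each library in turn. The scripts were tested on simulated data.

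CPM values are counts scaled by TMM. They do not correct for gene length, so levels are compared between groups and not between genes. Genes were named by a rule. It takes, in each direction, the 15 largest changes among called genes that average 3 or more on the log2 CPM scale and whose groups do not overlap, the 10 TF genes in each direction by the same filters, up to 4 called members of each list in each direction, and 5 loci on either side of HB7. LFY, PYL4, PYL5, HAI1, HAI2, HAI3, HAT14, HB17, MYB58, MYC4, RPM1, RPS2, BRL1 and the near-identical NLR pairs fall outside that rule and were chosen after their values were seen. Gene families were taken by words in the RefSeq annotation, which can miss members or add others. The members, lists and rules were chosen with earlier results of these data known. Fold changes against a group at 0 counts are given against a floor of 3 counts over its 3 libraries. Intervals and floors cover counting error only. Promoters were read from the RefSeq genome TAIR10.1 with Python 3.11.15.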

Additional observations from a re-analysis of the deposited data

How the results depend on the processing

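With the EV libraries of batch 3 alone 347 genes were higher and 61 lower, and DESeq2 called 837 lower (969 higher). Leaving out 1 library at a time gave 384 to 836 genes higher and 196 to 720 lower against EV, the highest of both without EV replicate 1, the lowest of both without HB7 replicate 2, and 350 to 374 lower against the other TFs. Without HB7 replicate 1 the counts against EV were 419 higher and 212 lower, and without HB7 replicate 3 they were 386 and 219. With the replicate number as a block, which HB7 and EV libraries share without being paired by it (correlations of -0.077, -0.056 and 0.016 between same-numbered libraries), 200 genes were higher and 7 lower. Every other alternative run gave counts within 1.5 times of those reported. All 668 higher and all 408 lower genes kept their direction in DESeq2, with the replicate block and without EV replicate 1. The same held without the low-count filter and with all libraries of batch 3 in a single model. Neighbours of HB7 that were not called were less stable. AT2G46730 had 2.32, 1.42 and 1.74 CPM in HB7 against 0, 2.08 and 2.23 in EV, so its direction depends on EV replicate 1. The cause of the shifts in the counts of called genes was not tested. With 3 wells a group, small changes such as those of the NLR genes are at the limit of what these libraries resolve, and low genes such as DRN, GA3OX1 and LAX3 rest on few counts.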

Other observations

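The gene groups below were chosen after their values were seen and are given as counts and values. Among the 9 tested genes of auxin synthesis by TAA1 and the YUC enzymes, TAA1 and YUC5 rose in HB7 against EV. TAA1, the aminotransferase of the step before YUC5, had 1.35, 1.51 and 1.23 CPM in HB7 and 0 counts in all 3 EV libraries, at least 28.4-fold higher, and was not called against the other TFs. The summed level of the auxin synthesis genes was 142 to 173 CPM in HB7 and 7.82 to 15.4 in EV, and most of it came from YUC5.

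Of 16 genes of brassinosteroid synthesis and signalling, 5 rose and 1 fell, shares of 31.2% and 6.25% against 3.43% and 2.09% over all genes. CYP90D1, a P450 of brassinosteroid synthesis, had 33.4, 27.4 and 30.8 CPM in HB7 against 10.4, 2.998 and 7.24 in EV (log2 fold change 2.17, SE 0.41, edgeR adjusted p = 0.00516). BR6OX1, another enzyme of that pathway, had 3.96, 1.63 and 1.51 CPM against 0 counts in EV, at least 49.4-fold higher. BES1, a TF of the brassinosteroid response, had 21.3, 16.6 and 11.3 CPM against 0, 3.54 and 3.62. The receptors moved apart, since BRL1 rose (log2 fold change 0.90) and BRL3 fell by 0.58 on the log2 scale, but BRL3 was not called against the other TFs. CYP90D1, BR6OX1, BES1 and BRL1 were above all 17 other libraries of batch 3.

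Receptor-like proteins, which carry leucine-rich repeats outside the cell but no kinase, had 6 of 45 tested genes lower and 2 higher against EV, 13.3% lower against 2.09% over all genes. Against the other TFs 2 were lower, RLP7 and RLP35, and 2 higher. RLP32 had 1.39, 2.67 and 4.77 CPM in HB7 against 24.7, 9.37 and 9.32 in EV, and RLP7 had 3.33, 3.14 and 3.09 against 11.6, 8.58 and 9.47. The 2 that rose, RLP44 and RLP11, were at 0 counts in EV. RLP44, known to link wall integrity to brassinosteroid signalling, had 5.06, 4.56 and 6.28 CPM, at least 110.5-fold higher. Of 18 EXO70 subunits of the exocyst, which tethers secretory vesicles, 4 fell against EV, 22.2% against 2.09% over all genes, and none of these 4 was called against the other TFs. EXO70H1 rose, at 314, 380.4 and 398 CPM against 190.1, 181 and 158 (log2 fold change 1.05, SE 0.11, edgeR adjusted p = 3.95e-05). EXO70H1 was above all 17 other libraries of batch 3, and EXO70B2, a subunit known from immunity, fell by 0.39 on the log2 scale.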
